A study of Sus scrofa with 12 samples.

Results

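Sites next to gene ends that every C/EBP-β library of pig endometrium called are described here. Peak summits on chromosomes 1 to 18 and X were joined when consecutive ones lay within 200 bp, and a region was called constant when all 6 libraries had a summit in it. Of 98994 regions, 2701 were constant, and 1051 of these had their midpoint within 2 kb of either end of a protein-coding gene. The other 1650 constant regions comprised 848 inside gene bodies and 802 in intergenic sequence. The sites were chosen by the presence of a summit in every library and by their distance to a gene end, so neither is a result.

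The tissue was endometrium, the lining of the uterus, of pregnant pigs. It was taken on day 15 (3 ChIP libraries) and day 12 (3 ChIP libraries) of pregnancy, with 6 matching input samples that were not analysed here. All 6 ChIP libraries were made with the antibody ab32358 against C/EBP-beta. No breed, age or number of animals is stated in the labels, so p-values measure the spread between the libraries and nothing says whether that spread is biological or technical. The tissue holds epithelium, stroma, vessels and immune cells together, and a summit list cannot tell in which cells a site was occupied. Summit lists carry no expression value against which the tissue label could be checked.

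The transcription factor C/EBP-β has a basic leucine zipper and binds DNA as a dimer, with itself, with other C/EBP proteins or with factors of the ATF and CREB family. In the uterus it is best known from mouse and human work, where it is needed for the decidual response of stromal cells and acts downstream of progesterone, cyclic AMP and cytokines of the IL6 family. Summits next to the ends of active genes are common in ChIP data of many factors. Whether a given one holds a C/EBP sequence was not examined, since no sequence was used here. The gene table also gives no strand, so the start and the end of a gene are not told apart.

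The libraries differed in length from 70105, 16519 and 11954 summits in day 15 replicates 1 to 3 to 6556, 33274 and 57694 in day 12 replicates 1 to 3. Peak names with a directory path (set A) occur in day 15 replicates 2 and 3 and day 12 replicate 1, and names without one (set B) in the other 3 libraries. One sample code occurs in the peak names of both day 15 replicates 2 and 3, and the names of replicate 3 do not name the protein. These libraries stood apart from the other 4 in the ranks given below, so the ranks, widths and day counts that rest on them are also given without them. The files hold no read counts, and sequencing depth is unknown.

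Near a gene end lay 38.9% of the constant regions (1051 of 2701, 95% exact binomial interval 37.1% to 40.8%, which covers counting error only). The share was 36.4% among regions of 5 libraries, 30.7% among those of 4, and 18.1% to 19.4% among those of 1 to 3. Just short of the rule were 1152 gene-end regions with a summit in 5 libraries. Of these, 612 lacked day 12 replicate 1, the shortest list, 241 lacked day 12 replicate 2 and 173 lacked day 15 replicate 3. Each of the remaining 3 libraries was the missing one in 40 to 44 regions. With both day 15 libraries of the shared code left out and a summit in the other 4 required, 1414 gene-end sites made up 27.3% of the constant regions.

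Within the limit of 2 kb that the rule set, the median distance to the gene end was 161.5 bp (quartiles 62.3 and 485 bp). Within 100 bp lay 376 sites (35.8%), between 100 and 300 bp 324, between 300 bp and 1 kb 226, and beyond 1 kb 125. Inside a protein-coding gene were 526 sites and outside 525. Ends of at least 2 protein-coding genes lay within 2 kb of 276 sites (26.3%), and ends of 3 genes within 2 kb of 15. An end of a long non-coding RNA gene lay within 2 kb of 85 sites (8.09%), against 79 of the other constant regions (4.79%). Another constant region within 5 kb was present for 40 sites (3.81%) and for 46 of the other regions (2.79%).

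Chromosomes differed in how many sites they held per gene. Chromosome 12 had 87 sites, or 7.76 per 100 protein-coding genes, the highest rate, and chromosome X had 7, or 0.919 per 100 genes, the lowest. Autosomes other than chromosome 12 ranged from 3.77 on chromosome 16 to 6.67 on chromosome 4. The closest to the distance limit on its inner side were the sites of RASSF5 (1976.5 bp), SOD2 (1988 bp) and COQ5 (1992.5 bp), with mean ranks of 97.5, 31.3 and 43.6. On its outer side were those of LOC110260612 (2006 bp), CIC (2027.5 bp) and SLC25A30 (2028 bp), with mean ranks of 40.0, 38.7 and 47.9.

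Summit heights were compared by rank. The authors' score, on a −log10 scale of significance, grows with depth, so each library ranked the same 2701 constant regions by it. The rank percentile runs from 0 for the lowest to 100 for the highest score. In day 15 replicates 2 and 3, gene-end sites averaged 55.8 and 55.2, against 46.3 and 46.7 for the other constant regions. In day 15 replicate 1 the averages were 39.3 for gene-end sites and 56.8 for the others. In day 12 replicates 1 to 3, gene-end sites averaged 42.8, 37.1 and 40.8, against 54.6, 58.2 and 55.9 for the others. Gene-end sites thus ranked above the rest in the libraries with the shared code and below it in the other 4. Gene-body and intergenic regions stayed close to each other in every library, for example at 55.7 and 58.0 in day 15 replicate 1.

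Over the 6 libraries, the mean rank of gene-end sites minus that of the other constant regions was -7.93 ± 13.4 percentile points (SD, n = 6 libraries). This was below the spread between libraries (two-sided exact sign-flip permutation p = 0.219, smallest possible 0.0313). The difference was 0.126 ± 15.3 points on day 15 and -16.0 ± 4.78 points on day 12 (SD, n = 3 each). Day 15 exceeded day 12 by 16.1 points, which the libraries did not separate (exact permutation, two-sided, p = 0.3; the smallest p for 3 against 3 libraries is 0.1). Within set A day 15 exceeded day 12 by 20.7 points and within set B by 0.611 points (exact permutation within sets, p = 0.222, smallest possible 0.111). Set A compares the libraries of the shared code with 1 library of day 12. With both of those day 15 libraries left out, the mean difference over 4 libraries was -8.23 points, and day 15 replicate 1 exceeded the day 12 libraries by 3.96 points (exact permutation p = 0.75, where 1 library against 3 cannot go below 0.25). When every list was shortened to its 6556 highest-scoring summits, 309 gene-end sites were left and the mean difference over the 6 libraries became 0.839 points (exact sign-flip permutation p = 0.656).

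**Figure D1:**
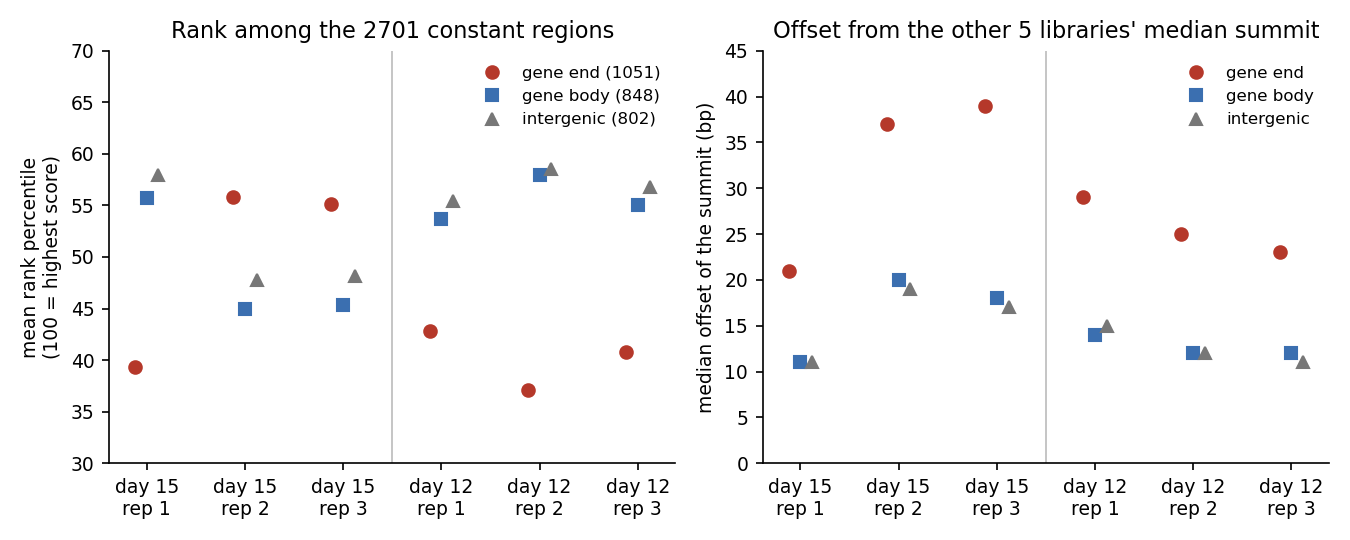
Left, mean rank percentile of constant regions in each library, by location; right, median distance in bp of a library's summit from the median summit of the other 5 libraries. Circles are gene-end sites, squares gene-body and triangles intergenic regions. Gene-end sites rank above the others in day 15 replicates 2 and 3 only, while their summits lie farther from those of the other libraries in all 6.

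Summits of different libraries coincided less exactly at gene ends. The width of a site, counted from its first to its last summit, had a median of 117 bp at gene ends (quartiles 64.5 and 201 bp) and 58 bp in the other constant regions (36 and 100 bp). At most 50 bp wide were 193 gene-end sites (18.4%), against 693 of the other regions (42.0%). More than 200 bp wide were 264 gene-end sites (25.1%), against 79 of the others (4.79%). Only 1 site in each of 3 libraries held more than 1 summit of the same library, so the width reflects differences between libraries. With both libraries of the shared code left out, the median width was 65.5 bp at 1414 gene-end sites and 44 bp in 3762 other constant regions.

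Library by library, the same property was measured as the distance of its summit from the median of the other 5 libraries' summits. For gene-end sites the median distance was 21, 37 and 39 bp in day 15 replicates 1 to 3 and 29, 25 and 23 bp in day 12 replicates 1 to 3. For the other constant regions it was 11, 20 and 17 bp in the day 15 and 15, 12 and 12 bp in the day 12 libraries. The mean distance was greater at gene ends by 25.0 ± 1.97 bp (SD, n = 6). Each library's distance is taken from the other 5 in the same regions, so the 6 differences are not independent, and they restate the width difference with no test of their own. The mean difference was 15.3 bp with both libraries of the shared code left out and 6.26 bp with every list shortened to 6556 summits. It was 13.8 bp when summits were joined within 100 bp and 46.6 bp when joined within 500 bp. Low-ranking regions also had wider spreads, and gene-end sites held fewer high mean ranks. The mean rank reached the middle of the percentile scale at 371 of 1051 gene-end sites (35.3%), against 879 of 1650 other regions (53.3%). Among the regions that reached it, the excess was 9.03 ± 3.81 bp (SD, n = 6). Between the days the excess was 25.8 ± 2.14 bp on day 15 and 24.2 ± 1.78 bp on day 12, a difference of 1.59 bp (SD, n = 3 each) that was 3.10 bp within set A and 0.162 bp within set B.

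Narrow gene-end sites ranked high in every library and wide ones ranked low in 4 of 6. Sites up to 50 bp wide averaged rank percentiles of 68.6, 67.0 and 61.0 in day 15 replicates 1 to 3 and 68.2, 66.5 and 69.2 in day 12 replicates 1 to 3. Sites over 200 bp wide averaged 18.5, 48.3 and 51.4 in the day 15 and 23.4, 17.6 and 21.1 in the day 12 libraries. For wide gene-end sites, only day 15 replicates 2 and 3 were near the middle of the scale. The other constant regions also ranked lower when wide, in all 6 libraries. Those up to 50 bp wide averaged 62.3, 53.2 and 55.9 in the day 15 and 67.7, 67.5 and 60.2 in the day 12 libraries. Those over 200 bp wide averaged 33.2, 39.3 and 39.4 in the day 15 and 23.9, 29.1 and 35.9 in the day 12 libraries. The rank in a library was also correlated (Spearman) with the spread of the other 5 libraries' summits. At gene-end sites the correlations were -0.57, -0.20 and -0.07 in day 15 replicates 1 to 3 and -0.51, -0.54 and -0.54 in day 12 replicates 1 to 3. In the other constant regions they were -0.23, -0.18 and -0.26 in the day 15 and -0.48, -0.39 and -0.19 in the day 12 libraries. With both libraries of the shared code left out, gene-end sites up to 50 bp wide averaged 62.7 in day 15 replicate 1 and 61.0, 56.7 and 59.1 in the day 12 libraries. Gene-end sites over 200 bp wide then averaged 19.04 in day 15 replicate 1 and 27.7, 11.8 and 15.5 in the day 12 libraries. The correlations above run across 1051 gene-end sites or 1650 other regions that share their libraries, and are given as a description.

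**Figure D2:**
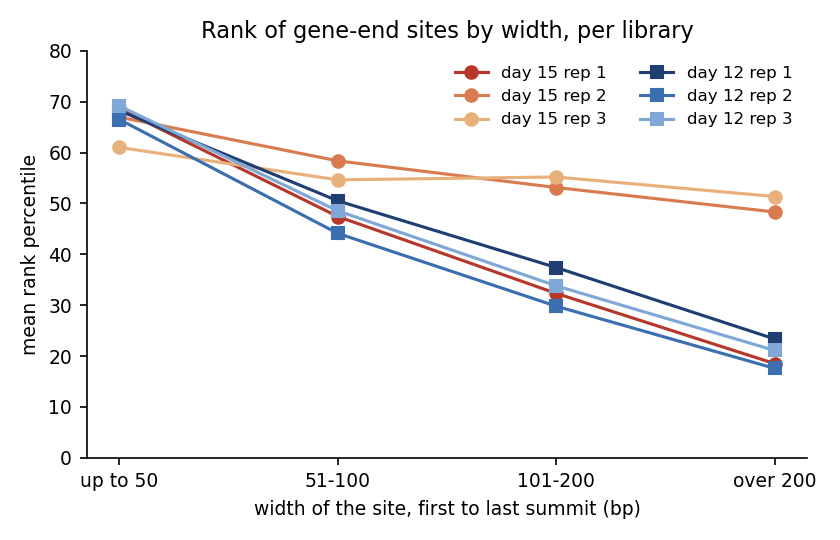
Mean rank percentile of gene-end sites by the width of the site in bp, one line per library (circles day 15, squares day 12). Lines of 4 libraries fall steeply from the narrowest to the widest sites, to between 17.6 and 23.4, whereas day 15 replicates 2 and 3 fall to 48.3 and 51.4.

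Distance to the gene end went with the same contrast. Sites within 100 bp averaged rank percentiles of 32.3, 55.3 and 54.4 in day 15 replicates 1 to 3 and 37.0, 30.03 and 34.9 in day 12 replicates 1 to 3. Sites between 1 and 2 kb averaged 54.5, 50.9 and 48.9 in the day 15 and 51.9, 53.2 and 52.9 in the day 12 libraries. All 6 libraries thus lay close together for sites beyond 1 kb, and far apart for sites at the gene end itself. With both libraries of the shared code left out, sites within 100 bp averaged 40.2 in day 15 replicate 1 and 45.5, 31.0 and 35.0 in the day 12 libraries, and sites between 1 and 2 kb 54.4 in day 15 replicate 1 and 53.3, 53.4 and 53.02 in the day 12 libraries. Median widths were 142 bp within 100 bp of the end and 65 bp beyond 1 kb. Sites with ends of at least 2 genes nearby averaged 31.9, 56.5 and 55.8 in the day 15 and 38.3, 30.3 and 34.0 in the day 12 libraries, and sites with 1 such gene 41.9, 55.5 and 54.9 in the day 15 and 44.4, 39.5 and 43.2 in the day 12 libraries.

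**Figure D3:**
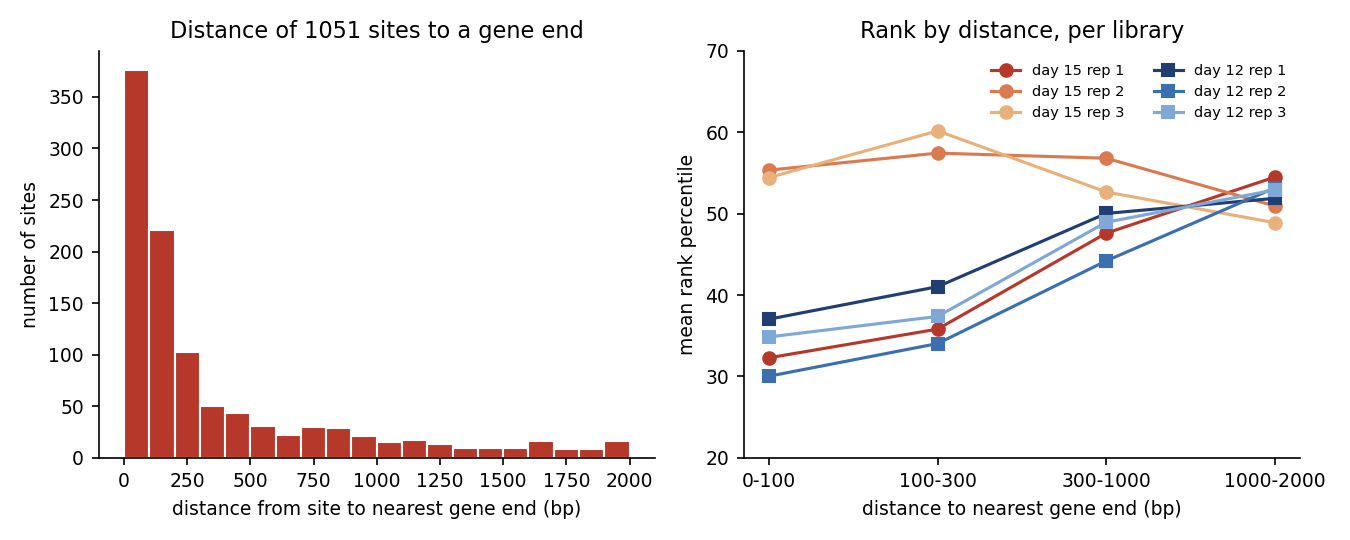
Left, number of sites per 100 bp of distance to the nearest gene end; right, mean rank percentile by distance class in bp, one line per library (circles day 15, squares day 12). Ranks differ most between libraries within 300 bp of a gene end and are close to each other beyond 1 kb.

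In the highest 10% of the constant regions in each of the 6 libraries were 29 gene-end sites (2.76%), against 35 of the other constant regions (2.12%). The 12 sites with the highest mean ranks were 9 to 57 bp wide, and their mean rank percentiles, which chose them, ran from 98.3 to 99.8. LMNTD1, which encodes a lamin tail domain protein, had a site at chromosome 5, 48398926 to 48398934, inside the gene and 971 bp from an end. Its rank percentiles were 99.5, 99.98 and 99.9 in day 15 replicates 1 to 3 and 99.9, 99.98 and 99.3 in day 12 replicates 1 to 3. Behind these ranks stood authors' scores of 365, 226 and 201 in the day 15 and 146, 172 and 160 in the day 12 libraries. The 6 summits of this site fell within 9 bp, and the days overlapped in rank.

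The 12 highest sites lay next to genes of varied function. Among them, the days did not overlap at CCT3, with day 15 lower, and at COTL1, with day 15 higher. The site of CCT3, a subunit gene of the TRiC chaperonin, had rank percentiles of 98.6, 99.5 and 99.4 on day 15 and 99.7, 99.6 and 99.9 on day 12. PSMC4, an ATPase subunit gene of the proteasome's regulatory particle, had 99.2, 99.4 and 99.8 on day 15 and 99.9, 98.7 and 95.9 on day 12. At BCAS2, which encodes a spliceosome-associated protein, the values were 98.1, 99.7 and 99.6 on day 15 and 99.2, 98.9 and 94.98 on day 12. Each of these 3 sites lay 138.5 bp or less from the gene end and was at most 32 bp wide. The site of NUDCD2 (chromosome 16, 60332177 to 60332193), a gene for a protein of the NudC family, which works with HSP90, lay 45 bp from an end and had a mean rank of 98.3.

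NFKBIA encodes IκBα, the inhibitor that holds NF-κB in the cytoplasm and is itself an NF-κB target. Its site, chromosome 7, 64508831 to 64508844, inside the gene, had rank percentiles of 99.3, 98.0 and 98.1 on day 15 and 98.1, 98.5 and 99.0 on day 12. TINAGL1, a gene for a secreted matrix protein, had a site 853.5 bp outside its nearer end (chromosome 6, 88094789 to 88094804) with a mean rank of 99.1. BBS9, which encodes a BBSome subunit of primary cilia, had one 215.5 bp inside the gene (chromosome 18, 40394018 to 40394039) with a mean rank of 98.9. IRGQ, of the immunity-related GTPase family, had one 9.5 bp from its end (chromosome 6, 50442097 to 50442134) with a mean rank of 98.3. Mean ranks were 99.2 for QPCTL, a glutaminyl cyclase gene of the Golgi, 98.9 for COTL1, an actin-binding protein gene, and 98.6 for NAGK, the N-acetylglucosamine kinase gene.

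At the bottom, the 5 lowest sites had mean rank percentiles of 3.52 to 7.37, and 4 of them were 235 to 330 bp wide. PCMTD1 had the lowest mean rank, with 0.0926, 10.00 and 2.96 in day 15 replicates 1 to 3 and 4.98, 1.5 and 1.57 in day 12 replicates 1 to 3. Its summits spread over 330 bp at chromosome 4, 78098774 to 78099103. The others were next to GEMIN5, a gene of the SMN complex, CEP97, a centriole protein gene, NEMF, a gene of ribosome-associated quality control, and PPM1L, a phosphatase gene whose site was 53 bp wide.

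**Figure D4:**
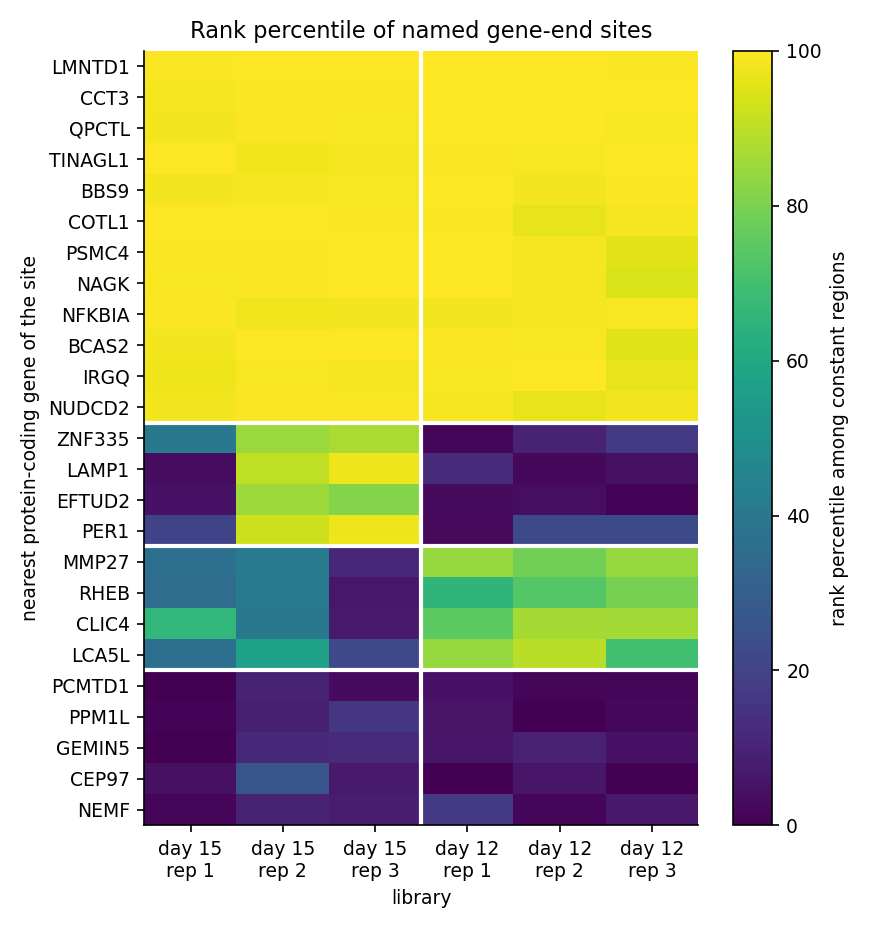
Rank percentile among the constant regions (colour, 0 to 100) of named gene-end sites (rows, by nearest protein-coding gene) in the 6 libraries (columns, day 15 left of day 12). From top to bottom, the blocks hold the 12 sites with the highest mean rank, the 4 with the largest excess on day 15, the 4 with the largest excess on day 12 and the 5 with the lowest mean rank.

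No site was called different between the days. In limma fits of the ranks, turned into normal scores, over all 2701 constant regions, 0 regions passed an adjusted p of 0.05 in either direction (0% called, and the lowest Benjamini-Hochberg adjusted p at a gene-end site was 0.493). At an unadjusted p under 0.05, 101 gene-end sites had a higher rank on day 15, of 134 such constant regions in all (4.96% of 2701). A lower rank on day 15 was found at 20 gene-end sites, of 130 regions in all (4.81%). With both libraries of the shared code left out, 7 of 1414 gene-end sites were higher and 12 lower on day 15 at an unadjusted p under 0.05, against 42 (0.811%) and 151 (2.92%) of 5176 constant regions. In that fit the lone day 15 library is assumed to vary like the day 12 libraries. With lists of equal length, 9 of 309 gene-end sites were higher and 8 lower, against 44 (4.2%) and 49 (4.68%) of 1048 regions. Without day 15 replicate 1, which leaves only the libraries of the shared code for that day, 150 of 2747 regions passed the adjusted threshold. Of the 84 that were then higher on day 15 (3.06%), 72 were gene-end sites, and of the 66 that were lower (2.4%), 6 were. The ranks of day 15 lay wholly above those of day 12 at 84 gene-end sites (7.99%), against 6.29% of all constant regions. They lay wholly below at 37 (3.52%), against 6.07% of all constant regions. With the libraries of the shared code left out, day 15 replicate 1 lay above all day 12 libraries at 367 of 1414 gene-end sites (26.0%), against 26.1% of all constant regions, and below them at 204 (14.4%), against 21.4%.

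The sites with the largest difference between days are given as a description, since that difference chose them. ZNF335, a zinc finger gene of a histone methyltransferase complex, had rank percentiles of 40.6, 84.8 and 87.5 on day 15 and 1.83, 10.1 and 17.0 on day 12, so the days did not overlap. For EFTUD2, a GTPase gene of the U5 snRNP, they were 5.02, 85.3 and 81.5 on day 15 and 2.87, 3.55 and 0.815 on day 12. Day 15 replicate 1 was close to the day 12 libraries there. LAMP1, a gene of a lysosomal membrane protein, had 3.28, 90.5 and 97.6 on day 15 and 12.2, 2.15 and 4.42 on day 12. PER1, a repressor of the circadian clock, had 20.01, 92.2 and 97.6 on day 15 and 2.59, 22.4 and 22.5 on day 12. At LAMP1 and PER1 day 15 replicate 1 lay inside the day 12 range, and the day 15 excess came from replicates 2 and 3.

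In the opposite direction the 4 sites were 25 to 69 bp wide, and the days did not overlap at any of them. The site of MMP27, a matrix metalloproteinase gene, was at chromosome 9, 33379888 to 33379921, 76.5 bp from an end. It had rank percentiles of 36.7, 40.7 and 10.9 on day 15 and 84.4, 78.7 and 84.7 on day 12. RHEB, the GTPase that activates mTORC1, had 35.7, 40.9 and 6.28 on day 15 and 65.6, 73.5 and 79.5 on day 12. This site lay 1974 bp outside the gene, and it is only 1 of 2 gene-end sites counted for RHEB. CLIC4 and LCA5L had day 15 means of 37.9 and 38.5, against day 12 means of 82.5 and 81.3. Since the days did not overlap, day 15 replicate 1 was necessarily below all day 12 libraries at these 4 sites.

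Within 2 kb of a constant gene-end site were 1325 of 19484 protein-coding genes, or 6.8%, and this share is the background for the gene lists. Their median length was 21364 bp, against 20697 bp for all protein-coding genes. At least 2 sites were counted for 17 genes, among them the corepressor gene TLE3, the apoptosis inhibitor gene MCL1 and PER1, named after their values were seen. RHEB and RAB1A are also among the 17. For PER1, RHEB and RAB1A, values of only 1 site each are given. At TLE3 one site 101 bp from the end had a mean rank of 42.1 and was 195 bp wide, and the other, 1942 bp away, had a mean rank of 90.9 and was 93 bp wide. Of the 18 gene lists, 15 had a larger share of genes with a site than all genes, and 1 had none. These shares are counts and carry no test. A gene counts when any site lies within 2 kb of its end, and the sites given below for BECN1, DDIT3, DNAJB9, HNRNPA1, NDUFS1, PSMB1, PSMC2, RPS12 and SF3B1 lie nearer to an end of another protein-coding gene.

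**Figure D5:**
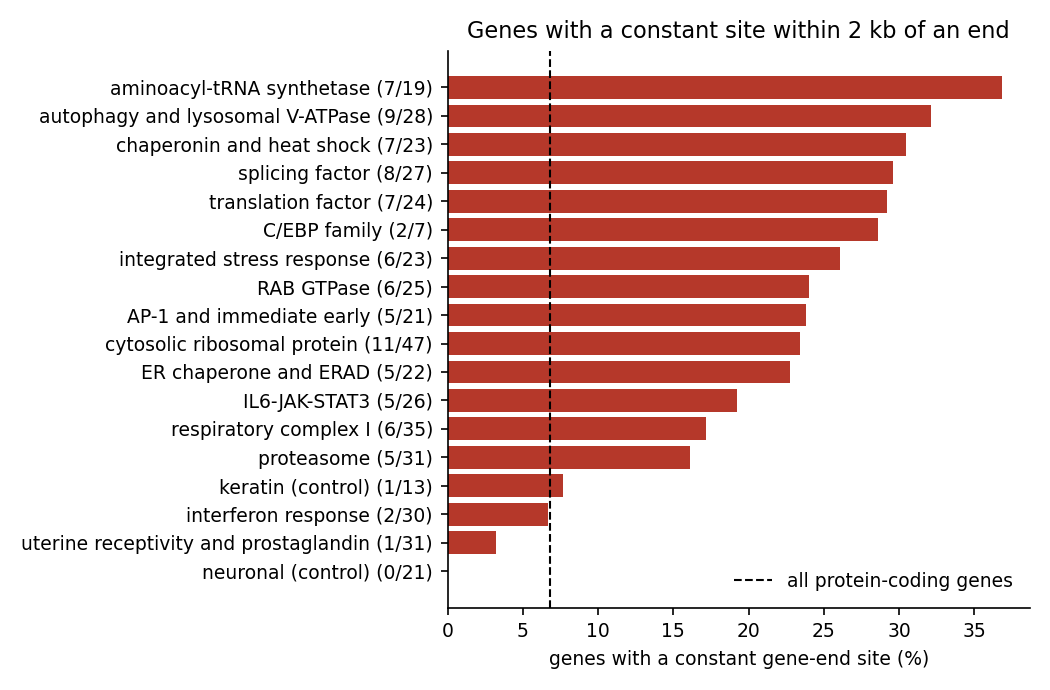
Percent of the matched genes of each list with a constant site within 2 kb of an end (bars, counts in parentheses); the dashed line marks the 6.8% of all protein-coding genes. The interferon, keratin, receptivity and neuronal lists reach 0 to 7.69%, and the other lists 16.1% to 36.8%.

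Aminoacyl-tRNA synthetases, which charge tRNAs with amino acids, had 7 of 19 genes with a site (36.8%), the largest share of the 18 lists. Translation factors had 7 of 24 (29.2%), and cytosolic ribosomal proteins 11 of 47 (23.4%). IARS, for isoleucine, had rank percentiles of 89.5, 95.3 and 70.6 on day 15 and 92.4, 96.1 and 78.3 on day 12, at a site 22 bp wide. TARS, for threonine, had 70.5, 41.6 and 84.1 on day 15 and 65.4, 83.7 and 80.3 on day 12. AARS, for alanine, had a mean rank of 66.4, and LARS, for leucine, one of 55.8. The sites of IARS, TARS and AARS were 22 to 38 bp wide, and the days overlapped at each of them. The site of LARS was 172 bp wide. Its rank percentiles were 55.2, 72.2 and 71.7 on day 15 and 35.7, 47.4 and 52.4 on day 12, and the days did not overlap.

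Among translation factors, EIF4A1, the RNA helicase of the cap-binding complex, had the highest mean rank. Its rank percentiles were 87.8, 94.4 and 94.2 on day 15 and 93.7, 94.2 and 87.4 on day 12, at a site 16 bp wide inside the gene. Its paralogue EIF4A2 had 27.6, 79.6 and 82.5 on day 15 and 35.1, 42.6 and 14.9 on day 12. EEF1A1, the elongation factor that delivers tRNAs, had 14.9, 71.7 and 77.1 on day 15 and 47.6, 28.0 and 39.0 on day 12. At EIF4A2 and EEF1A1 only day 15 replicates 2 and 3 were above all others. EIF2S2, a subunit gene of the factor that brings the initiator tRNA, had a mean rank of 50.7. The ribosomal protein genes RPS12, RPS9 and RPL7, of which the RPS12 site lies nearer to SLC18B1, had mean ranks of 51.4, 42.0 and 41.3, with sites 92 to 263 bp wide.

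Chaperonin and heat shock genes had 7 of 23 with a site (30.4%), ER chaperone and ERAD genes 5 of 22 (22.7%), and proteasome genes 5 of 31 (16.1%). HSPA5, the ER chaperone BiP, had rank percentiles of 86.5, 95.3 and 92.8 on day 15 and 67.7, 50.1 and 82.0 on day 12, and the days did not overlap. HERPUD1, an ER-associated degradation gene, had 88.2, 87.1 and 74.0 on day 15 and 95.6, 91.1 and 94.4 on day 12, which did not overlap in the opposite direction. XBP1, the transcription factor of the unfolded protein response, had a mean rank of 64.2, and DNAJB9, a BiP co-chaperone gene, one of 48.3. HSPA9, HSPA4 and HSPB1 had mean ranks of 63.1, 42.0 and 37.3. The site of HSPB1, a small heat shock protein gene, was 530 bp wide, the maximum among gene-end sites. Proteasome members other than PSMC4 were PSMB3 with a mean rank of 74.6, PSMB1 with 40.6 and PSMC2 with 39.1. The days did not overlap at HSPA4 and PSMB1 either, where day 15 was higher. They overlapped at XBP1, DNAJB9, HSPA9, HSPB1, PSMB3 and PSMC2.

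C/EBP-β is itself part of the integrated stress response, and 6 of 23 genes of that list had a site (26.1%). Of the 7 C/EBP family genes, CEBPB and DDIT3 had one. The site counted for DDIT3 lay 246.5 bp from that gene and nearer, at 106.5 bp, to MBD6. CEBPB, which encodes the protein that was precipitated, had its site at chromosome 17, 51723969 to 51724060, 341.5 bp outside the gene. Rank percentiles there were 80.5, 78.0 and 45.7 on day 15 and 9.87, 56.3 and 64.1 on day 12, from authors' scores of 150, 30.4 and 11.8 on day 15 and 4.87, 22.0 and 42.1 on day 12. The days overlapped, and day 12 replicate 1 was lowest. DDIT3 encodes CHOP, a C/EBP protein that forms dimers with C/EBP-β. It had 70.6, 96.6 and 94.4 on day 15 and 65.0, 66.6 and 50.1 on day 12 (chromosome 5, 22789965 to 22790262), and the days did not overlap.

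CHAC1, a glutathione-degrading enzyme gene induced by ATF4, ran the other way. Its rank percentiles were 67.4, 29.95 and 24.6 on day 15 and 83.8, 72.2 and 71.2 on day 12, at chromosome 1, 130363479 to 130363557, and the days did not overlap. NUPR1, a stress-induced chromatin protein gene, had a mean rank of 52.9. PPP1R15A, the phosphatase subunit that ends the eIF2α stress signal, had 3.05, 57.8 and 61.2 on day 15 and 72.3, 15.6 and 3.24 on day 12. At that gene set A libraries were above set B libraries on both days. The same order of sets held at other named sites, among them those of JUN, KLF4, PIM3, RPS9, EEF1A1, RAB6A, ATP6V1G1 and MAP1LC3B. At the sites of BECN1, NDUFA13 and SLC25A30, among others, set B libraries were above set A libraries.

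Of the AP-1 and immediate early genes, 5 of 21 had a site (23.8%). IER2 had rank percentiles of 77.5, 93.8 and 90.7 on day 15 and 78.6, 58.6 and 80.6 on day 12. FOSB and JUN, which encode AP-1 subunits, had day 15 values of 19.97, 81.2 and 89.9 for FOSB and 16.9, 79.5 and 90.8 for JUN. Their day 12 values were 57.4, 37.8 and 59.9 for FOSB and 67.5, 19.8 and 12.8 for JUN. The days overlapped at all 3 genes. KLF4, a zinc finger factor gene, had a mean rank of 32.2.

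IL6-JAK-STAT3 genes had 5 of 26 with a site (19.2%). BCL6, a transcriptional repressor, had rank percentiles of 62.6, 74.9 and 80.8 on day 15 and 74.4, 67.9 and 68.1 on day 12. IL6R, the receptor subunit for IL6, had 91.1, 90.9 and 31.4 on day 15 and 51.3, 56.6 and 87.7 on day 12, at a site 29 bp from an end. SOCS1, a feedback inhibitor of JAK kinases, had 74.7, 9.51 and 58.7 on day 15 and 79.5, 76.2 and 81.9 on day 12. At SOCS1 the days did not overlap, and at BCL6 and IL6R they did. PIM3, a kinase gene, had 20.9, 91.7 and 97.4 on day 15 and 62.7, 10.9 and 5.998 on day 12.

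Further lists of general cell functions were splicing factors with 8 of 27 genes (29.6%), autophagy and lysosomal V-ATPase genes with 9 of 28 (32.1%), RAB GTPases with 6 of 25 (24.0%) and respiratory complex I with 6 of 35 (17.1%). HNRNPA2B1, an RNA-binding protein gene, had rank percentiles of 74.5, 93.3 and 97.8 on day 15 and 89.5, 62.5 and 68.9 on day 12. NDUFS7, a complex I subunit gene, had 87.7, 87.7 and 83.6 on day 15 and 88.0, 77.0 and 80.1 on day 12. ATG5, which is needed to extend the autophagosome membrane, had 77.4, 82.6 and 61.3 on day 15 and 73.1, 74.2 and 86.2 on day 12. The days overlapped at these 3 genes, whose sites were 33 to 84 bp wide. Mean ranks were 61.8, 50.6 and 45.7 for the splicing genes HNRNPA1, SF3B1 and SRSF5, and 57.2, 41.3 and 40.5 for the complex I genes NDUFA13, NDUFC2 and NDUFS1. RAB18, RAB1A, RAB6A and RAB11A, which direct vesicle traffic, had 53.0, 51.3, 51.2 and 37.1. ATP6V1G1, a proton pump subunit gene, had 44.9, and BECN1 and MAP1LC3B, which act in autophagosome formation, had 40.1 and 37.3.

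Interferon response genes had 2 of 30 with a site (6.67%), and uterine receptivity and prostaglandin genes 1 of 31 (3.23%), against the background of 6.8%. ISG15, an antiviral ubiquitin-like modifier gene, had rank percentiles of 3.65, 85.0 and 32.9 on day 15 and 17.97, 16.1 and 8.76 on day 12. PTGS2 encodes cyclooxygenase 2, which starts prostaglandin synthesis. Its site at chromosome 9, 127858894 to 127859024, 93 bp outside the gene, had 39.5, 61.3 and 17.3 on day 15 and 17.0, 5.42 and 26.7 on day 12. The sites of ISG15 and PTGS2 had mean ranks of 27.4 and 27.9, and the days overlapped at each. Neuronal genes had 0 of 21 and keratins 1 of 13 (7.69%). That keratin gene was KRT18, of simple epithelia, with 87.2, 82.7 and 90.2 on day 15 and 98.0, 97.1 and 98.1 on day 12, where the days did not overlap.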

How the data were processed

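The deposited files are lists of peak summits 1 bp wide, 1 list for each ChIP library by the peak names. Column 5, deposited as the peak caller gave it, holds a −log10 of significance, and whether of p or q is not stated. The submitters' processing notes name susScr11, MACS2 2.1.2, Bowtie2 2.3.5.1 and SAMtools 1.9. Not given in the sources used here are the threshold of peak calling, whether the input was used, and pooling. Depth is unknown, so intervals cover counting error only.

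Coordinates count from 1. RefSeq gave the gene ends on Sscrofa11.1, which is susScr11 (19484 protein-coding genes on chromosomes 1 to 18 and X). It gives no strand, exons or sequence, so the planned share of sites at gene starts and the planned search for 13 motifs were not run. In each library the highest-scoring summit of a region gave its score and position. The days were compared in rank with exact permutation tests and, per region, with limma 3.58.1 in R 4.3.3 on normal scores of the ranks (Benjamini-Hochberg adjusted, threshold 0.05). The procedure was tested on simulated data. In the simulated ranks the libraries were independent and their spread was capped. How the fit behaves with libraries that share a set or a sample code was not tested. Python 3.11.15 did the rest.

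The members, lists and tests were chosen with earlier results of these data known. The summit distances, the tests without or averaging the libraries of the shared code, and the comparison from the middle of the rank scale upward were chosen after seeing the data. The 18 lists held 468 entries, of which 453 matched by symbol or synonym, most aminoacyl-tRNA synthetases only by the older symbol without its final 1. Named are the 12 sites with the highest and the 5 with the lowest mean rank, up to 4 of each list by mean rank, all of the C/EBP family, the 4 with the largest difference between days in each direction, and 3 on each side of 2 kb. The planned naming by motif could not be applied, and a few genes it would name are not reported here. Whether replicate numbers pair the samples is unknown, and values with a replicate block are given with the alternatives.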

Additional observations from a re-analysis of the deposited data

Results flagged for a closer look

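On sequences other than chromosomes 1 to 18 and X, which the comparisons do not use, 34 regions had a summit in all 6 libraries, among 1196 regions from 2239 summits. They lay on 12 sequences, and 0 of them were on chromosome Y. Their position relative to gene ends was not analysed here. Groups of 3 libraries are too small for a check of single outlying values.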

How the results depend on the processing

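The number of gene-end sites, 1051, was 670 with a score of at least 5, 309 with lists of equal length, and 1074 to 1648 when 1 library was left out, with 1648 without day 12 replicate 1. Their share of the constant regions, 38.9%, was 33.9% and 42.8% with joining within 100 and 500 bp, 35.3% with a score of at least 5, and 34.3% and 47.4% with gene ends within 1 and 5 kb. It was 29.5% with lists of equal length, 27.3% without both libraries of the shared code, and 33.9% to 42.8% with 1 library left out. The mean rank difference of -7.93 points turned to 0.839 with lists of equal length (the cause was not tested), and was -8.58 to -6.16 with 1 library left out. With the libraries of the shared code averaged or left out it was -11.3 and -8.23 points. With joining within 100 and 500 bp it was -5.11 and -9.48 points. The difference between days in this rank difference could not pass 0.05 in any alternative, because the libraries are too few. The smallest possible p is 0.1 for 3 against 3 libraries, 0.111 within sets and 0.25 for 1 library against 3. The lowest found was 0.1, by exact permutation without day 15 replicate 1. The difference between days, 16.1 points, was 12.4 to 25.2 with 1 library left out and 4.97 with lists of equal length. The greater summit distance at gene ends, 25.0 bp, was 20.3 to 26.7 bp with 1 library left out, 13.8 and 46.6 bp with joining within 100 and 500 bp, 17.2 bp with a score of at least 5, 6.26 bp with lists of equal length, and 24.8 and 15.3 bp with the libraries of the shared code averaged or left out. The difference between days in that distance, 1.59 bp, was -0.162 bp without both libraries of the shared code and -1.47 to 4.31 bp with 1 library left out. It was -0.932 bp without day 15 replicate 1 and -1.47 bp without day 12 replicate 3. The number of regions that differed between days was 0 under every alternative except without day 15 replicate 1 (150). Between 14 and 16 of the 18 gene lists stood above the background. Deviations of same-numbered libraries correlated at -0.48, -0.13 and -0.39. Every same-numbered pair joins a set A library with a set B library, so these values cannot show whether the numbers pair the samples. With a replicate block, the difference between days in rank stayed 16.1 points (exact p = 0.5), that in summit distance 1.59 bp, and 0 regions were called. With unknown depth, a missing summit in the shortest list cannot be read as absence of binding.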
